A study of Zea mays with 10 samples.

Results

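The genes described here are 127 maize gene models whose transcripts were raised in isolated ms28 male germ cells at prophase I of meiosis while their level in whole ms28 anthers stayed within 2-fold of B73. They were taken from 22377 gene models present in both prophase I tables, and make up 0.568% of them. The genes were chosen by their measured levels in these same libraries. Both ms28 germ cell libraries had to reach 5 TPM or more (transcripts per 1000000, a share of a library's RNA), and the lower of them had to be at least 4 times the higher B73 germ cell value. In anthers, both genotype means had to reach 3 TPM, and the ratio of the ms28 mean to the B73 mean had to lie between 0.5 and 2. A block of consecutive gene numbers, Zm00001d012786 to Zm00001d013188, was left out. Another 2 gene models inside it met every other condition.

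The groups were prophase I male germ cells of ms28 and of B73, prophase I anthers of ms28 and of B73, and premeiotic anthers of B73, with 2 libraries in each of these 5 groups. B73 is the inbred line of the maize reference genome, and ms28 is a male-sterile mutant line. The labels do not say whether the mutation was bred into B73, so a difference between the lines may include other differences between their genomes. Plants grew in a field or a greenhouse, and the labels do not tie a library to either. They also do not say that replicate libraries came from different plants, so the spread between replicates may be technical.

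The anther is the pollen-bearing organ of the flower. Its inner cells enter meiosis as germ cells, and the layers around them, among them the tapetum, feed and support them. Grass anthers make large amounts of phased small RNAs, phasiRNAs, of which a 21-nt class appears before and during early meiosis. Small RNAs act by guiding Argonaute proteins to matching transcripts, which can then be cleaved, and Ms28 is known to encode a protein of the Argonaute family. The series asks which transcripts the 21-nt phasiRNAs target in anthers and germ cells.

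The gene models are named by ID alone. None of the 127 IDs (0 matches) was found in the RefSeq gene table used, which is built on Zm-B73-REFERENCE-NAM-5.0, so no gene function, genome position or sequence is given. Of 45 symbols of anther wall, meiotic and small RNA pathway genes listed as cell markers, 0 could be paired with an ID of the tables, so the labelled tissues were not checked by named markers. Each prophase I column summed to between 99.1 and 99.4% of 1000000. TPM keeps no sequencing depth, so the depth behind these values is unknown. The median tested feature was lower in ms28 anthers than in B73 anthers by a log2 difference of -0.61 between the library medians, against 0.09 in germ cells.

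The 127 genes were far more abundant in ms28 germ cells than in B73 germ cells, which is what their selection required. Their median level was 23.9 and 25.5 TPM in the ms28 germ cell libraries, against 3.48 and 3.06 TPM in the B73 germ cell libraries. In anthers their median was 38.3 and 45.0 TPM in the ms28 libraries, against 48.1 and 45.8 TPM in the B73 libraries. The ms28 germ cells thus lay between the B73 germ cells and the anthers at the median. Together the genes held 1.14 and 1.12% of the RNA of the ms28 germ cell libraries, against 0.141 and 0.158% in B73 germ cells. Their share was 1.58 and 1.94% in ms28 anthers, against 1.40 and 1.38% in B73 anthers. In such bulk samples a change in the mix of cells and a change in RNA per cell cannot be told apart.

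**Figure D1:**
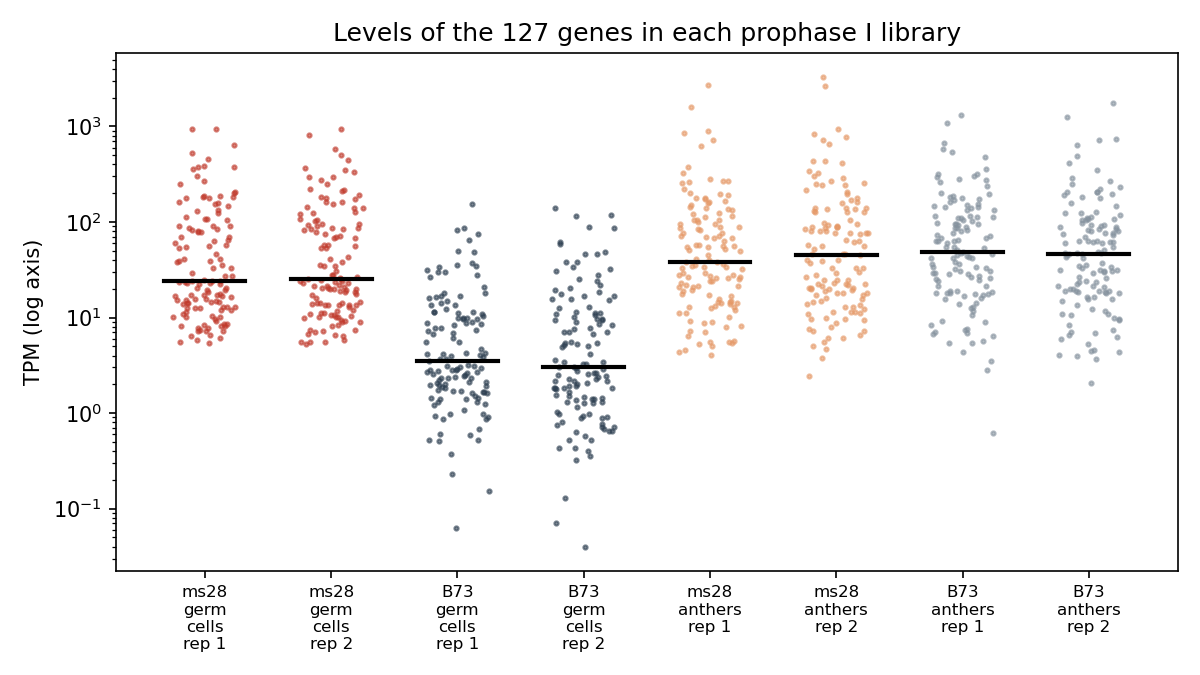
TPM of the 127 genes (vertical log axis) in each of the 8 prophase I libraries, 1 point per gene, with the median as a black bar. The B73 germ cell libraries stand apart, with medians of 3.48 and 3.06 TPM against at least 23.9 TPM in every other library.

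The ratio of the ms28 germ cell mean to the B73 germ cell mean had a median of 7.59 over the 127 genes and ran from 4.34 to 143. The median germ cell difference in log2(TPM + 1), a scale that compresses the change of low genes, was 2.57, beside 0.06 over all 20892 features tested. Of the gene models outside the left-out block, 0.755% met both germ cell conditions (167 models), and 127 of these also met the anther conditions. Of the other 40, 21 had an anther mean under 3 TPM, 13 were more than 2-fold higher in ms28 anthers and 6 were more than 2-fold lower. The mirrored rule, at least 4-fold lower in ms28 germ cells with the same anther conditions, found 23 gene models. The raised genes were therefore 1.01% and the lowered ones 0.183% of the 12563 gene models that met the anther conditions.

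**Figure D2:**
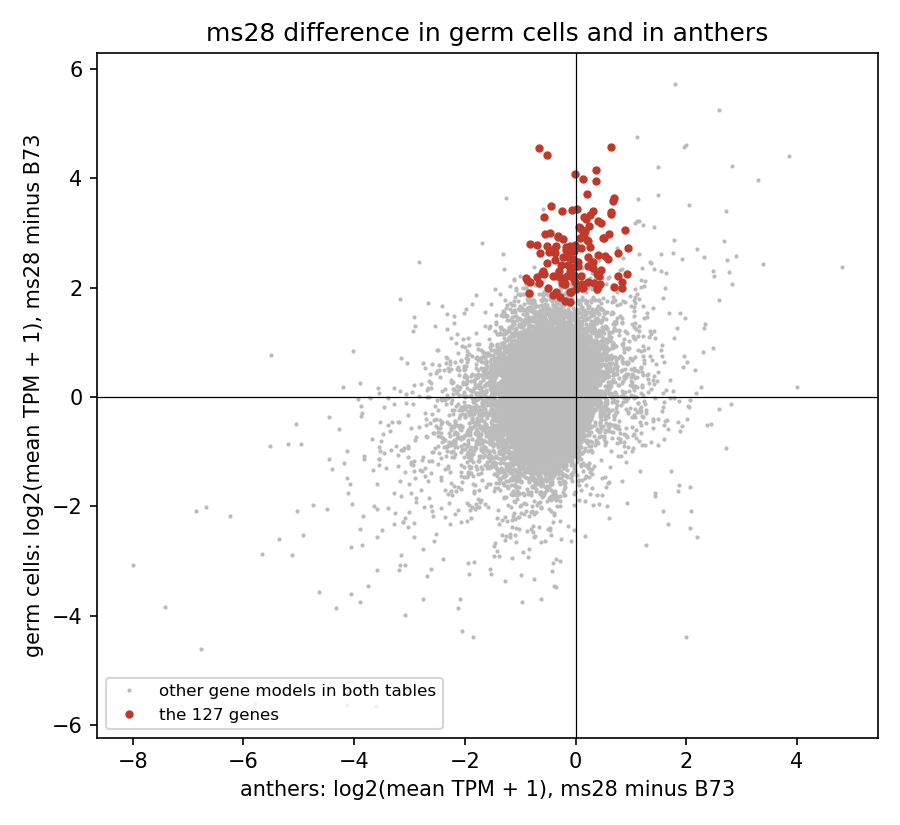
Difference of ms28 minus B73 in log2(mean TPM + 1) for germ cells (vertical) and anthers (horizontal), 1 point per gene model, with the 127 genes in red. The red points lie at a median of 2.57 in germ cells and near 0 in anthers, where the bulk of the grey points lies below 0.

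The genes covered a wide range of abundance. In ms28 germ cells 30 had a mean of 100 TPM or more, 78 a mean from 10 to 100 TPM and 19 a mean under 10 TPM. In B73 germ cells 32 were at 10 TPM or more in both libraries and 13 were under 1 TPM in both. None was listed at 0 in a B73 germ cell library. Levels in ms28 and B73 germ cells ran in parallel across the genes, with a Spearman correlation of 0.921 and a Pearson correlation of 0.944 on the log scale over the 127 genes. All points come from the same 4 libraries and the rule ties both axes, so this is a description only. For the 127 genes, replicate libraries differed by a median absolute log2 value of 0.18 in ms28 germ cells and 0.29 in B73 germ cells, beside 0.21 and 0.29 over all tested features. The germ cell conditions favour genes whose libraries agree. In anthers the median was 0.31 in ms28 and 0.35 in B73, beside 0.21 and 0.31 over all tested features.

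The most abundant member was Zm00001d040508, at 946 and 928 TPM in ms28 germ cells, against 155 and 119 TPM in B73 germ cells. Its anther values were 194 and 242 TPM in ms28 and 273 and 286 TPM in B73. The ms28 germ cells were thus higher than any anther library, while the ms28 anthers were lower than the B73 anthers. Zm00001d008387 read 948 and 809 TPM in ms28 germ cells, against 82.1 and 116 TPM in B73 germ cells. Its anther libraries overlapped between the genotypes, at 631 and 832 TPM in ms28 and 586 and 643 TPM in B73. For this gene the ms28 germ cells stood at about the level of the anthers, 1.20 times the ms28 anther mean. Zm00001d029968 read 643 and 581 TPM in ms28 germ cells, against 64.4 and 139 TPM in B73 germ cells. It was higher still in anthers, at 898 and 933 TPM in ms28 and 544 and 720 TPM in B73.

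The next members in abundance were likewise separated in germ cells. Zm00001d040766 stood at 459 and 497 TPM in ms28 germ cells, against 27.6 and 32.4 TPM in B73 germ cells, a ratio of means of 15.9. Its anther levels were 117 and 105 TPM in ms28 and 97.9 and 72.3 TPM in B73, so both ms28 anther libraries lay above both B73 ones. Zm00001d015460 stood at 533 and 440 TPM in ms28 germ cells, against 74.6 and 88.2 TPM in B73 germ cells. Both its ms28 anther libraries, at 166 and 171 TPM, lay below the B73 anther libraries at 178 and 194 TPM. Zm00001d005276 stood at 374 and 369 TPM in ms28 germ cells, against 85.5 TPM in both B73 germ cell libraries. Its ratio of means, 4.35, was the smallest among the 6 most abundant genes.

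**Figure D3:**
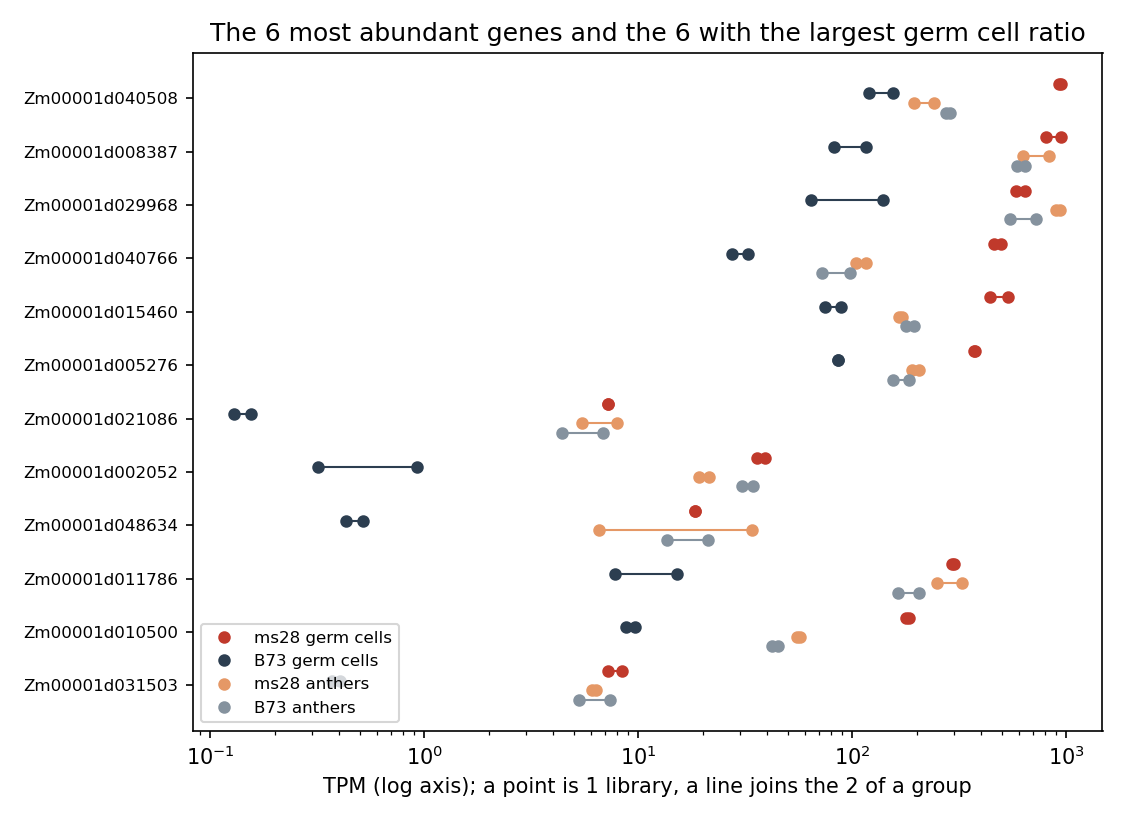
TPM (horizontal log axis) of the 6 genes most abundant in ms28 germ cells and the 6 with the largest ratio of the lower ms28 to the higher B73 germ cell value, with 1 point per library and a line joining the libraries of a group. For each gene the B73 germ cell points lie to the left of all other groups' points.

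The 6 genes with the largest ratios ranged from low to high abundance. Among genes whose higher B73 germ cell value was at least 0.1 TPM, Zm00001d021086 led with 7.25 and 7.21 TPM in ms28 germ cells, against 0.154 and 0.129 TPM in B73 germ cells. Its anther values overlapped, at 5.45 and 7.99 TPM in ms28 and 4.40 and 6.88 TPM in B73. Zm00001d002052 read 39.0 and 35.8 TPM in ms28 germ cells, against 0.929 and 0.320 TPM in B73 germ cells. In anthers it was lower in both ms28 libraries, at 21.3 and 19.2 TPM, than in both B73 libraries, at 30.7 and 34.3 TPM. Zm00001d048634 read 18.4 and 18.3 TPM in ms28 germ cells, against 0.520 and 0.431 TPM in B73 germ cells. Its ms28 anther libraries disagreed, at 34.0 and 6.59 TPM, on either side of the B73 ones at 21.1 and 13.6 TPM.

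Zm00001d011786 and Zm00001d010500 were abundant in ms28 germ cells. Zm00001d011786 read 300 and 293 TPM in ms28 germ cells, against 7.78 and 15.3 TPM in B73 germ cells, and 328 and 250 TPM in ms28 anthers, against 163 and 206 TPM in B73 anthers. Zm00001d010500 read 183 and 178 TPM in ms28 germ cells, against 8.73 and 9.65 TPM in B73 germ cells. Its anther values were 55.0 and 57.2 TPM in ms28 and 42.1 and 45.0 TPM in B73, so its level was higher in germ cells than in anthers in ms28 and lower in germ cells than in anthers in B73. Zm00001d031503, a low gene, read 7.22 and 8.38 TPM in ms28 germ cells, against 0.370 and 0.404 TPM in B73 germ cells. The single highest ratio, chosen after the values were seen, was that of Zm00001d006446, at 7.19 and 7.34 TPM in ms28 germ cells, against 0.0624 and 0.0395 TPM in B73 germ cells.

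The 4-fold condition cut through a continuous range. Of the 127 genes, 43 had a ratio of the lower ms28 to the higher B73 value under 5, and 34 had a ratio of 8 or more. Just inside stood Zm00001d051110, Zm00001d003107 and Zm00001d011850, with ratios of 4.01, 4.03 and 4.03. Just outside stood Zm00001d031637, Zm00001d051227 and Zm00001d008035, with ratios of 3.97, 3.95 and 3.95. At the minimum of 5 TPM, Zm00001d003107, Zm00001d027883 and Zm00001d006553 were just inside, with lower ms28 germ cell values of 5.24, 5.40 and 5.49 TPM. Zm00001d010540, Zm00001d002721 and Zm00001d036865 were just outside, at 4.99, 4.57 and 4.51 TPM.

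In anthers the 127 genes stood at nearly the same median level in both genotypes. The median of the other gene models that met the anther conditions was lower in ms28. Those others were not matched for level: their B73 anther medians were 19.8 and 16.8 TPM, against 48.1 and 45.8 TPM for the 127 genes. Whether level explains the difference was not tested. The ratio of the ms28 to the B73 anther mean had a median of 0.991 over the 127 genes and 0.721 over the other 12436 gene models that met the same anther conditions. In 61 of the 127 genes (48.0%) the ms28 anther mean was above the B73 mean, against 11.2% of those other gene models. Both ms28 anther libraries lay above both B73 ones in 25 genes (19.7%) and below both in 30 (23.6%), and the groups overlapped in 72. Over all tested features these shares were 3.44% above and 68.7% below. Among the gene models that met the anther conditions they were 3.22% above and 64.9% below. The rule set the limits of the anther ratio but not where within them the genes fell, and no test was made of their place.

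The anther comparison moved with the scaling of the libraries. When every library was aligned on its median tested feature (centring), the median anther ratio of the 127 genes was 1.51, against 1.10 for the other gene models that met the anther conditions. By centred values 27 of the genes exceeded a 2-fold anther difference and the other 100 stayed within 2-fold. In germ cells 110 of the 127 genes kept a centred ratio of the lower ms28 to the higher B73 value of 4 or more. The whole rule was still met by 87 of them. Some anther means also rested on libraries that differed: the ms28 anther libraries were over 2-fold apart in 13 genes and the B73 ones in 9. Zm00001d001820, for example, read 122 and 728 TPM in ms28 anthers, against 359 and 234 TPM in B73 anthers.

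The germ cell level was next set against the anther level within each genotype, although the tables may have been filtered and scaled separately, so that table and tissue cannot be told apart. In B73 germ cells 120 of the 127 genes lay below both B73 anther libraries in both germ cell libraries, 2 lay above and 5 overlapped. In ms28 germ cells 56 lay below both ms28 anther libraries, 52 lay above and 19 overlapped. Over all tested features 49.4% lay below and 34.3% above in B73, and 34.3% below and 47.6% above in ms28. The median ratio of germ cell to anther mean was 0.939 in ms28 and 0.0924 in B73 for the 127 genes, and 1.13 in ms28 and 0.813 in B73 for the other gene models that met the anther conditions.

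**Figure D4:**
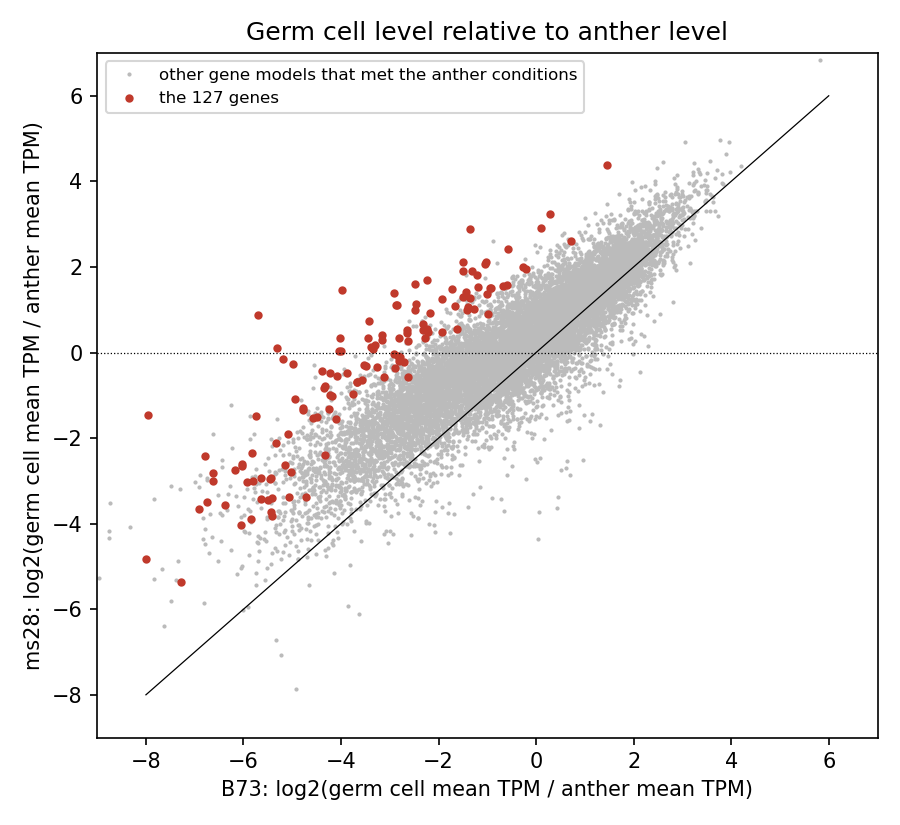
Log2 ratio of the germ cell mean to the anther mean in ms28 (vertical) and in B73 (horizontal), 1 point per gene model that met the anther conditions, with the 127 genes in red. The solid line marks equal ratios, the dotted line an ms28 ratio of 1, an offset of 0.001 TPM was added to germ cell means, and 7 grey points lie outside the axes. The red points lie on both sides of the dotted line.

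The 52 genes that were higher in ms28 germ cells than in ms28 anthers had a median mean level of 87.6 TPM in ms28 germ cells, against 9.57 TPM in B73 germ cells. Their anther medians were 30.7 TPM in ms28 and 31.0 TPM in B73. The 56 genes that stayed lower in ms28 germ cells than in ms28 anthers had medians of 16.0 TPM in ms28 germ cells, against 1.93 TPM in B73 germ cells, and of 88.7 TPM in ms28 anthers, against 84.1 TPM in B73 anthers. The median ratio of the ms28 to the B73 germ cell mean was 7.52 in the first set and 7.21 in the second. The sets were split on these same values after they had been seen, so no test was made between them. Their median germ cell to anther ratio in B73 was 0.353 in the first set and 0.0289 in the second.

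Genes at the ends of this range show the contrast. Zm00001d031081 read 206 and 161 TPM in ms28 germ cells, against 16.6 and 11.2 TPM in B73 germ cells. Its anther levels were 7.90 and 9.73 TPM in ms28 and 5.71 and 4.38 TPM in B73, so the ms28 germ cell mean was 20.8 times the ms28 anther mean. It was one of 4 members, with Zm00001d008363, Zm00001d014358 and Zm00001d020309, whose B73 germ cell mean was at or above the B73 anther mean. Zm00001d008363 read 83.9 and 103 TPM in ms28 germ cells, against 10.5 and 15.5 TPM in B73 germ cells, with all anther libraries between 9.73 and 10.7 TPM. Zm00001d014358 read 90.1 and 84.4 TPM in ms28 germ cells, against 9.98 and 7.51 TPM in B73 germ cells, with anther levels of 11.9 and 11.4 TPM in ms28 and 9.23 and 7.10 TPM in B73.

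At the other end, Zm00001d039040 was a dominant anther transcript, at 1612 and 3323 TPM in ms28 anthers and 1326 and 1242 TPM in B73 anthers. It read 46.0 and 73.9 TPM in ms28 germ cells, against 11.3 and 5.17 TPM in B73 germ cells, so that the ms28 germ cell mean was 0.0243 times the ms28 anther mean. Zm00001d001820 read 14.1 and 16.1 TPM in ms28 germ cells, against 1.65 and 0.653 TPM in B73 germ cells. Zm00001d006570 read 23.9 and 24.2 TPM in ms28 germ cells, against 4.72 and 4.14 TPM in B73 germ cells, beside 372 and 413 TPM in ms28 anthers, against 318 and 271 TPM in B73 anthers. These genes were raised in ms28 germ cells and still remained a small fraction of their anther level there.

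Members were commonest among the genes that B73 germ cells held at a small fraction of the anther level. Of the gene models that met the anther conditions, 9.20% of those with a B73 germ cell to anther ratio under 1/16 were members (54 of 587). The share was 1.85% from 1/16 to 1/4 (41 of 2217), 0.653% from 1/4 to 1 (28 of 4285) and 0.0731% at 1 or more (4 of 5474). A low B73 germ cell value favours both a low ratio and membership, so no test was made of this order.

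Anther-rich transcripts as a class were also higher in ms28 germ cells. Outside the 127 genes, 1206 gene models had a B73 anther mean of 10 TPM or more and at least 8 times the B73 germ cell mean. Their summed level was 22219 and 23143 TPM in the ms28 germ cell libraries, against 7279 and 13155 TPM in the B73 germ cell libraries. It was also higher in ms28 anthers, at 312443 and 233929 TPM, against 129767 and 213194 TPM in B73 anthers. In 74.0% of these gene models both ms28 germ cell libraries lay above both B73 ones, and in 4.81% below. Over all tested features 37.2% lay above and 28.0% below. Their median log2 germ cell difference was 0.80, against 2.57 for the 127 genes, and 67 of the 127 met the same anther-rich conditions. The B73 germ cell values that define this class also enter its difference. In 52 of the 127 genes both ms28 germ cell values exceeded both ms28 anther values, a smaller share than the 47.6% over all tested features (9950 of 20892). Germ cell and anther values may have been scaled separately. The part that RNA from other anther cells may have in the levels of the 127 genes was not tested.

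Premeiotic anthers were the only group that the rule did not use. All 127 genes were present in the premeiotic B73 table, whose unit no source states, and were compared by percentile rank over the 22377 features in all 3 tables. Their median percentile was 78.5, beside 68.8 for the other gene models that met the anther conditions. At or above the 50th percentile stood 81.9% of the 127 genes (104) and 76.5% of the others. At or above the 75th percentile stood 53.5% of the 127 genes (68) and 40.5% of the others, and at or above the 90th percentile 26.8% (34) and 16.4%. Under the 25th percentile were 4.72% (6 genes) and 4.24%. For comparison, their median percentile was 74.0 in ms28 germ cells and 37.7 in B73 germ cells, and 87.5 in ms28 anthers and 83.6 in B73 anthers. In the single B73 prophase I anther libraries it was 83.7 and 85.6, against 66.1 and 67.2 for the other gene models. The higher rank of the 127 genes was thus not particular to premeiotic anthers. The rule fixed the low rank in B73 germ cells.

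**Figure D5:**
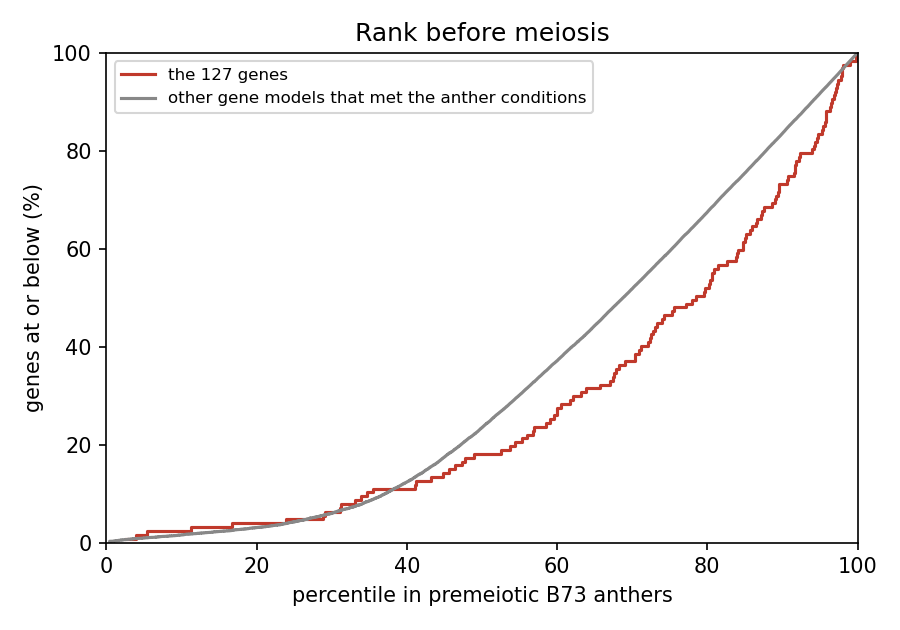
Cumulative share of genes (vertical, percent) by percentile in premeiotic B73 anthers (horizontal), for the 127 genes in red and the other 12436 gene models that met the anther conditions in grey. The red line runs below the grey one over most of its upper range, with medians at percentiles 78.5 and 68.8.

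The highest premeiotic rank was that of Zm00001d043049, at percentiles 99.9 in both premeiotic libraries. It was also the most abundant of the 127 in ms28 anthers by mean, at 2712 and 2669 TPM, against 1076 and 1757 TPM in B73 anthers. Its germ cell levels were 270 and 249 TPM in ms28 and 48.7 and 58.5 TPM in B73, so it was far below its anther level in germ cells of both genotypes. Zm00001d029968 and Zm00001d008387, described above, followed at percentiles 99.8 and 99.0. The lowest premeiotic ranks were those of Zm00001d044846, Zm00001d031503 and Zm00001d026336, at percentiles 2.57, 3.95 and 5.46. Zm00001d026336 stood at percentile 76.7 in B73 prophase I anthers, and read 8.22 and 6.42 TPM in ms28 germ cells, against 0.529 and 0.357 TPM in B73 germ cells. At least 25 percentile points higher in both B73 prophase I anther libraries than in both premeiotic ones were 14 of the 127 genes (11.0%), against 3.43% of the other gene models that met the anther conditions. At least 25 points lower were 2 genes (1.57%), against 0.491%.

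The genes were also placed by gene number, though the rule had already left out a block of consecutive numbers. No expected count of near neighbours was worked out, so whether they were few or many was not tested. Taking 5 numbers as the limit, 6 of the 127 genes formed 3 pairs of near neighbours, Zm00001d022141 with Zm00001d022144, Zm00001d048703 with Zm00001d048705, and Zm00001d050196 with Zm00001d050198. Zm00001d022141 read 177 and 174 TPM in ms28 germ cells, against 14.8 and 18.5 TPM in B73 germ cells. Its neighbour Zm00001d022144 read 22.2 and 23.6 TPM in ms28 germ cells, against 2.38 and 2.61 TPM in B73 germ cells, so the pair shared a similar ratio at different levels. Reads that overlapping or near-identical neighbours share could not be told apart here. Of 561 other gene models within 5 numbers of a member, 0 met the germ cell conditions. Outside the left-out block only 40 of 22125 gene models met these conditions without being members, so a count of 0 says little. In the 520 neighbours that were tested the median log2 germ cell difference was 0.08, beside 0.06 over all features. Both ms28 germ cell libraries lay above both B73 ones in 36.5% of these neighbours, beside 37.2% of all tested features. In bins of 5000 gene numbers the share of gene models that were members ran from 0.319 to 0.848%.

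Calls from a fit over all features are given beside their background, and nothing is read from them, since the rule used the same libraries. In limma on log2(TPM + 1), with a Benjamini-Hochberg adjusted p under 0.05, 126 of the 127 genes were called higher in ms28 germ cells, beside 9.05% of all features. The exception was Zm00001d034219 (log2 difference 2.07, adjusted p = 0.232), whose B73 anther libraries, part of the same fit, read 0.62 and 32.7 TPM. With the germ cell libraries fitted alone all 127 genes were called higher, beside 2495 of 18731 features. For the difference between the germ cell and the anther effects, 115 of the 127 genes were called higher in germ cells, beside 13.9% of all features. With centred libraries the count was 72, beside 0.895%, and with quantile normalization 65, beside 0.718%. When either ms28 germ cell library was left out, limma called almost no feature for this difference between tissues, so that loss was not particular to the 127 genes. Without ms28 anther replicate 1 fewer of the 127 genes were called, as were fewer of all features. In anthers 0 of the 127 genes were called by limma in either direction, beside 0.507% higher and 7.31% lower over all features. At an unadjusted p under 0.05 in limma, 6 were higher in ms28 anthers, beside 1.44% of all features. By adjusted p, centring gave 6 called higher in anthers, beside 0.886%, and quantile normalization 4, beside 0.708%. Rescaling moved the unadjusted count far more. With centring 59 of the 127 genes were higher in ms28 anthers at an unadjusted p under 0.05, beside 2311 of 20892 features. With quantile normalization 45 were, beside 1579 of 20892 features.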

How the data were processed

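Per the labels' protocols, total RNA was copied to cDNA by a Smart-seq method, amplified, tagmented and sequenced in pairs, without marking strand. Per the submitters' processing notes, the genome build was B73 RefGen_v4 and the tools included HISAT2 2.2.1, Trimmomatic 0.33, featureCounts 2.0.1, Cufflinks and DESeq2; their roles and order are not stated. The deposited values of both prophase I tables are TPM, read as such from the values, since the file headers name only genotype (WT, taken as B73) and replicate. The deposited premeiotic table was treated as a score of unknown unit and used for ranks; its 1 value below 0 was set to 0.

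The rule was applied to the 22377 gene models in both prophase I tables. The fit of log2(TPM + 1) by limma 3.58.1 (trend option, R 4.3.3) took the 20892 of 22402 features that reached 1 TPM in 2 or more of the 8 prophase I libraries. It had a term for each group, without a replicate block, and was tested on simulated data. Tables and plots were made in Python 3.11.15 with numpy 2.4.6, pandas 2.3.3, matplotlib 3.10.9 and scipy 1.17.1. Members and lists were chosen with earlier results of these data known. Members are named where they are the 6 most abundant in ms28 germ cells, the 6 of largest ratio, nearest a threshold, at the ends of the premeiotic rank (3 each) or of the germ cell to anther ratio (3 each), or near neighbours. A part of that rule for genes at 0 in B73 and for genes with a reference name found none. Alternatives changed the thresholds, scaling, pseudocount, filter, block and libraries. In the fit, centring subtracts the library's median log2 value over tested features. For member counts, ratios and differences of means, each library's TPM was instead multiplied by a factor taken from the same medians. That factor was set within germ cells or within anthers.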

Additional observations from a re-analysis of the deposited data

Results flagged for a closer look

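Limma's test of the difference between the germ cell and the anther effect of ms28 called 115 of the 127 genes, beside 13.9% of all features. The genes were chosen for that pattern in these same libraries, so the count restates the rule and supports nothing. It was 72 with centring, beside 0.895% of all features, and 65 with quantile normalization, beside 0.718%. When either ms28 germ cell library was left out, limma called almost no feature by this test, among the 127 genes or outside them. Without ms28 anther replicate 1 fewer of the 127 genes and fewer of all features were called. With all libraries kept and no rescaling, Zm00001d034219 was among the 12 not called, with a log2 difference of 1.10 between the effects (adjusted p = 0.643).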

How the results depend on the processing

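The number of genes that met the rule was 222 at a ratio of 3 and 34 at a ratio of 8, and 77 with quantile normalization, of which 74 were among the 127. Leaving out 1 library gave 120 to 274 genes, the highest without B73 germ cell replicate 2. The planned changes of the TPM minimums and of the anther band, centring (92 genes, 87 of them among the 127) and keeping the left-out block gave 92 to 158. The median germ cell difference of the 127 genes was 2.85 with a pseudocount of 0.1, 2.49 with centring, 2.34 with quantile normalization and from 2.51 to 2.58 with 1 library left out. Their median anther difference was 0.55 with centring and 0.42 with quantile normalization, against -0.01 as deposited, and ran from -0.06 to 0.09 with 1 library left out. The median premeiotic percentile was 88.9 over all features of that table and from 78.8 to 79.0 with 1 library left out. Features called higher in ms28 germ cells numbered 1890, and 230 to 2473 with 1 library left out. Removing an ms28 germ cell library left 230 (replicate 1) or 391 (replicate 2), and removing a B73 germ cell library left 658 (replicate 1) or 1047 (replicate 2). Those called higher in germ cells by the difference between tissues numbered 2902, 187 with centring and 150 with quantile normalization. With 1 library left out they numbered 0 to 4339, with 4989 at an unadjusted p under 0.05 where limma called 0. That was without ms28 germ cell replicate 1, and 3 were called without replicate 2. The replicate block gave 1427 and 1818 in these comparisons, and 125 and 110 of the 127 genes. Same-numbered ms28 and B73 libraries did not deviate together within a tissue (correlations of -0.03 in germ cells and -0.08 in anthers). Whether germ cell and anther libraries of the same number share an origin was not tested. Over 7 alternatives the germ cell differences of the 32 named members, whose direction the rule fixes, ran from 1.44 to 5.69, and 41 of 224 moved by more than 1 SD. The depth of the libraries is unknown, so low values, such as B73 germ cell levels under 1 TPM, carry an unknown counting error.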
